A study of Mus musculus with 6 samples.

Results

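The anterior epiblast class is 1 of 7 cell classes that the authors named in their table of day 6 mouse neural tube organoids. Its members were taken from the class name deposited for each cell, and there were 318 of them among the 4301 cells of that table and the 16282 cells of the series. The non-elongated library held 120 of them and elongated replicate 1 held 198. The label was checked against Otx2, En1 and Pou5f1, and all 3 were present, though each was higher in another class.

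The organoids were grown from mouse embryonic stem cells of the line Sox1::eGFP;Bra::mCherry, which carries fluorescent reporters for Sox1 and for Brachyury, and every library of the series shares this line. Single cells were embedded in Matrigel, received bFGF and activin-A until day 3, and were then kept in N2B27 medium without these factors. The day 6 table holds non-elongated organoids and, beside them, elongated organoids (replicate 1, which is batch 1 in the labels). Each library was made from pooled organoids with a 10x Genomics kit for 3′ ends, so a library stands for 1 pool of 1 line. The shape of each library was read from the initials of its deposited name, which the labels do not spell out. Elongated replicate 2 and the libraries of days 7, 8 and 10 lie in a second table that was annotated separately and holds no class of this name.

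The epiblast is the pluripotent layer of the embryo from which all tissues of the body arise, and Pou5f1 (Oct4) is one of the factors that keep its cells pluripotent. As the layer is patterned, Otx2 marks its anterior part and later the forebrain and midbrain, while Cdx and Hox genes mark the caudal part from which hindbrain and spinal cord tissue is laid down. En1 is a homeobox gene of the midbrain and of the isthmus, the signalling boundary between midbrain and hindbrain. Activin-A with bFGF is widely used to hold stem cells in an epiblast state.

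The class made up 5.39% of the non-elongated library (exact binomial 95% interval 4.49 to 6.41) and 9.54% of elongated replicate 1 (8.31 to 10.9). These intervals, and all others here, cover counting error only. With 1 library a group no difference between the libraries was tested, and shape and library cannot be told apart. The class held a total of 4116455 UMIs (unique molecules) in the non-elongated library and 8617301 in elongated replicate 1. Its median cell had 33122 and 42152 UMIs in these libraries, against 26739 and 34718 in the midbrain class and 32574 and 39012 in the caudal epiblast class. Median mitochondrial shares of the class were 5.04% and 5.16%. One cell barcode was shared by both libraries.

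Levels are given as UMIs scaled to a common total (CPM, counts per 1000000 UMIs), summed over the cells of a class and library, with exact Poisson 95% intervals in brackets. The authors made the classes by clustering these same cells, so the differences between classes below describe what the class holds and were not tested. A gene was counted as higher or lower when it differed at least 2-fold, on the log2(CPM + 1) scale, in the same direction in both libraries, among genes with a mean of at least 5 CPM.

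Otx2, the homeobox gene of the anterior neural plate (chromosome 14, 48657677 to 48673819, minus strand, GRCm38), had 30.6 CPM (25.5 to 36.4) in anterior epiblast cells of the non-elongated library and 25.2 CPM (21.9 to 28.8) in those of elongated replicate 1. It had 71.2 and 47.4 CPM in the midbrain class of the same libraries, and 2.00 and 1.14 CPM in the caudal epiblast class. En1 (chromosome 1, 120602418 to 120607992, plus strand) had 54.7 CPM (47.7 to 62.3) and 22.2 CPM (19.1 to 25.5) in the class. The class thus lay between midbrain and caudal epiblast cells for both genes: En1 had 215 and 171 CPM in the midbrain class and 0.436 and 0.568 CPM in the caudal epiblast class. Pou5f1 (chromosome 17, 35506018 to 35510772, plus strand) had 142 CPM (130 to 154) and 108 CPM (101 to 115) in the class. Against it stood 24.9 and 19.3 CPM in the midbrain class, and 337 and 144 CPM in the caudal epiblast class. No one of the 3 markers was highest in the class: Otx2 and En1 were higher in midbrain cells and Pou5f1 in caudal epiblast cells, in both libraries.

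**Figure D1:**
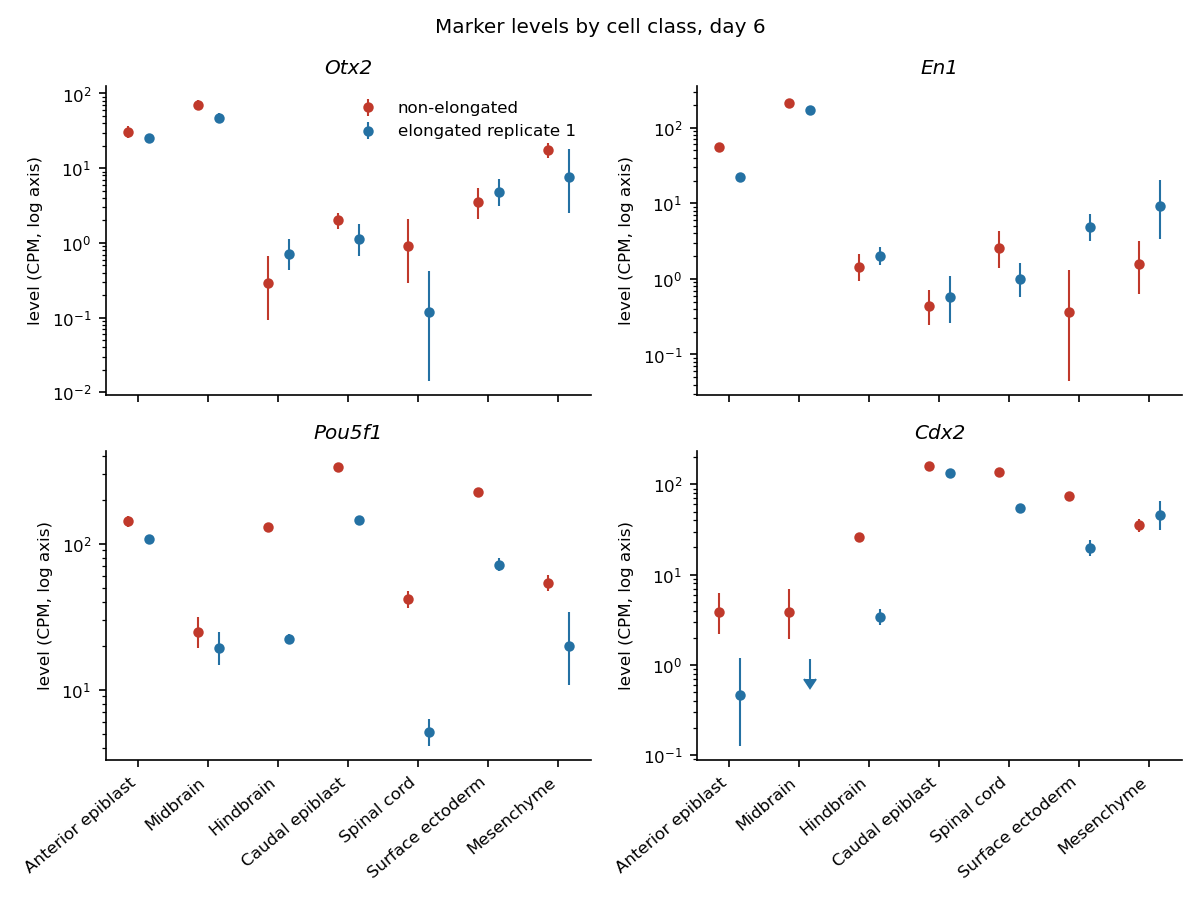
Levels of Otx2, En1, Pou5f1 and the caudal gene Cdx2 in the 7 classes of the day 6 table (CPM, log axis), red for the non-elongated library and blue for elongated replicate 1; bars are exact Poisson 95% intervals and an arrow marks a class with no UMI. Anterior epiblast cells sit between midbrain and caudal epiblast cells for Otx2, En1 and Pou5f1, and at 3.89 and 0.464 CPM for Cdx2.

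The pooled levels do not say whether the markers lay in the same cells, so each cell was thinned at random to 10000 UMIs and the cells with a UMI were counted. Otx2 was then detected in 21.7% of the class in the non-elongated library and 10.1% in elongated replicate 1, against 43.1% and 18.6% of midbrain cells. In hindbrain cells, which should lack the gene, the share was 0.594% and 0.541%. Pou5f1 was detected in 65.8% and 55.1% of the class, and in 17.6% and 22.1% of midbrain cells. The class thus lay below midbrain cells in its share with Otx2 and above them in its share with Pou5f1.

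Otx2 and Pou5f1 were detected together in 21 of 120 cells of the class in the non-elongated library (17.5%, interval 11.2 to 25.5) and in 12 of 198 cells in elongated replicate 1 (6.06%, 3.17 to 10.3). Independent detection at the same single-gene shares would give 14.3% and 5.56%, which lie within these intervals. En1 and Pou5f1 were found together in 10.0% and 5.56% of the class, where independence would give 17.0% and 6.67%. This pair was thus seen less often than independence gives, more so in the non-elongated library, and the difference was not tested. All 3 markers were seen in 3 cells of each library, 2.50% and 1.52%. Without thinning these shares were 17.5% and 8.59%, so the number of cells with all 3 markers is limited by depth. At least 1 of Otx2, En1 and Pax2 was detected in 50.8% and 34.3% of the class, against 87.3% and 72.1% of midbrain cells and 4.83% and 7.94% of caudal epiblast cells. None of these 3 genes and no Pou5f1 was seen in 12.5% and 29.3% of the class, or in 3.33% and 6.57% without thinning.

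Gbx2, which in the embryo marks the hindbrain side of the isthmus and opposes Otx2, was detected in 16.7% and 31.8% of the class. Cells with both Otx2 and Gbx2 numbered 0 of 120 in the non-elongated library, which allows a share of up to 2.50%, and 1 of 198 in elongated replicate 1 (0.505%, interval 0.0128 to 2.78). Independence would give 3.61% and 3.21%. Hesx1, a homeobox gene of the anterior forebrain, was detected in 11.7% and 6.57% of the class and in 0 of 1014 and 0 of 378 caudal epiblast cells, which allows shares of up to 0.296% and 0.794%. It was found with Otx2 in 7 cells (5.83%) and 6 cells (3.03%) of the class, where independence would give 2.53% and 0.663%. The joint counts are small and were not tested. They show Otx2 rarely beside Gbx2 and, in each library, at least as often beside Hesx1 as independence gives.

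The UMIs of the markers were unevenly spread over the cells of the class. Before thinning, the tenth of cells richest in En1 (12 and 19 cells) held 64.4% and 74.3% of the En1 UMIs. For Otx2 this share was 45.2% and 71.0%, and for Pou5f1 30.0% and 33.4%. Rhox5, an X-linked homeobox gene, was found in few cells: its UMIs came from 19 cells (15.8%) of the non-elongated library and 32 cells (16.2%) of elongated replicate 1, and single cells held up to 32 and 54 of them. Summed per thinned cell, epiblast genes and midbrain and isthmus genes had a Pearson correlation of -0.09 over the 120 cells of the non-elongated library and of 0.01 over the 198 cells of elongated replicate 1, a description of sparse counts that share a library.

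Against all other cells of the same library, 64 genes (0.731% of the 8750 counted) were higher in the class and 65 (0.743%) were lower, 129 (1.47%) in either direction. Of the 13 genes of midbrain and isthmus, 5 passed the level filter and 4 of these were higher: Otx2, En1, Pax2 and Pax5. The median log2 ratio of the 5 counted genes was 2.25 in the non-elongated library and 1.32 in elongated replicate 1. For all counted genes it was 0.01 and 0.00. The filter favours a high median for genes that are low in the other cells. Otx2 and En1 are also markers against which the label was checked, so this median is no independent check of it. Pax2, a paired-box gene of the isthmus, had 34.0 and 24.6 CPM in the class against 6.36 and 7.12 CPM in the other cells.

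Of the hindbrain genes 5 of 9 counted were lower, Hoxb1 and Hoxb2 among them. Of 11 spinal cord Hox genes 5 were counted, and all 5 were lower, an outcome that the filter favours for genes near 0 in the class. Hoxb9, a Hox gene of the trunk, had 0.729 CPM (0.150 to 2.13) and 1.39 CPM (0.720 to 2.43) in the class, against 51.7 and 122 CPM in the other cells. Cdx2, the caudal homeobox gene that acts upstream of trunk Hox genes, had 3.89 and 0.464 CPM in the class against 103 and 48.0 CPM elsewhere. Of 7 counted caudal epiblast genes 4 were lower, Cdx2, Nkx1-2, Wnt8a and Hes3, and 1 was higher, Cyp26a1. Hoxb2, a hindbrain gene, was lower but still had 15.5 CPM (12.0 to 19.9) and 14.9 CPM (12.4 to 17.7) in the class, against 97.5 and 104 CPM elsewhere. It was detected in 10.0% and 10.1% of thinned cells of the class, against 62.6% and 70.1% of caudal epiblast cells. Hoxaas3, Hoxb3os and Hotairm1, noncoding RNAs of the Hox clusters, were also among the 10 lowest. Whether the counting used strand is not given in the sources used here, so reads of antisense RNAs and of the Hox genes they overlap may be mixed.

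The 10 genes highest above all other cells by the smaller ratio of both libraries were Slc9b1, Cbln1, Ebf1, Otx2, Gm2694, Pcsk1n, Rhox5, Socs2, 1700013H16Rik and Trap1a. Slc9b1, a member of the sodium and proton exchanger family (chromosome 3, 135348029 to 135397827, plus strand), had 53.2 CPM (46.4 to 60.7) and 43.7 CPM (39.4 to 48.4) in the class against 3.76 and 4.81 CPM in the other cells. Ebf1, a transcription factor best known from B cells (chromosome 11, 44617317 to 45008091, plus strand), had 72.1 and 85.8 CPM against 12.5 and 13.4 CPM. Cbln1, a secreted organiser of synapses, had 32.8 and 30.5 CPM against 2.54 and 4.27 CPM. Socs2, an inhibitor of cytokine signalling, had 142 and 129 CPM against 30.0 and 32.3 CPM. Otx2 was the single member of the midbrain and isthmus list among these 10.

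Of 7 neuronal genes 3 were counted, and 2 of these were also higher in the class than in all other cells. Against midbrain cells 0 of 3 were higher, with median log2 ratios of -0.17 and 0.24, so this was not particular to the class. Tubb3, a tubulin of neurons, had 36.7 and 37.8 CPM in the class against 15.8 and 16.7 CPM elsewhere, and Elavl3, a neuronal RNA-binding protein, had 9.23 and 9.52 CPM against 3.70 and 4.24 CPM. Of the genes of the retinoic acid pathway, Cyp26a1, which degrades retinoic acid, was higher (14.6 and 9.28 CPM against 6.58 and 3.98 CPM), and Aldh1a2, which makes it, was lower (1.21 and 0.464 CPM against 9.23 and 10.8 CPM). Crabp1, a retinoic acid binding protein, was lower as well. Of 12 Wnt ligands only 3 were counted, Wnt4, Wnt5a and Wnt8a, and these were lower. Of 12 FGF targets 1 was lower, Il17rd, a feedback inhibitor. In the lists of S phase (16 genes), G2 and mitosis (16), hypoxia and glycolysis (20), p53 response (11), extracellular matrix (10), Notch (9), BMP targets (8) and Wnt targets (7) no counted gene was at least 2-fold apart from the other cells in both libraries. Among markers of further cell types, 1 of 3 counted neural crest genes was higher, Sox9, which neural progenitors also use, with 52.2 and 43.2 CPM in the class against 20.7 and 19.5 CPM elsewhere. Neither of the 2 counted mesoderm genes was at least 2-fold apart in both libraries. T, the mesoderm factor Brachyury, which did not pass the level filter, had 0.729 and 0.812 CPM in the class against 6.48 and 2.28 CPM, no endoderm gene passed the level filter, and Trp63 of stratified epithelium had no UMI in the class, which allows up to 0.729 and 0.348 CPM.

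Set against the midbrain class, 65 genes (0.742% of the 8766 counted) were higher and 40 (0.456%) were lower, 105 (1.20%) in either direction. Of the epiblast genes 4 of 9 counted were higher, Pou5f1, Utf1, Dnmt3b and Nanog, and none was lower. The median log2 ratio of the 9 counted genes was 0.93 and 0.76. The filter favours higher calls for genes near 0 in midbrain cells, such as Utf1. Utf1, a chromatin factor of pluripotent cells, had 22.1 CPM (17.8 to 27.1) and 25.9 CPM (22.6 to 29.5) in the class, against 3.16 and 1.26 CPM in midbrain cells. Dnmt3b, the DNA methyltransferase of the epiblast, had 288 and 271 CPM against 111 and 112 CPM.

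Epithelial genes were higher too. Epcam, an epithelial adhesion molecule, had 154 and 114 CPM in the class against 33.7 and 14.2 CPM in midbrain cells. Cdh1 (E-cadherin) had 27.2 and 24.4 CPM against 5.96 and 3.79 CPM. Cldn7, a tight junction protein, was the third of 5 counted genes of the epithelial list to be higher. Rab25, a small GTPase of epithelial cells, and Fst, the activin antagonist follistatin, were also among the 10 highest, Fst with 99.4 and 135 CPM against 14.7 and 27.5 CPM. Cdh2 (N-cadherin), the cadherin of neural tissue, had 37.9 and 38.4 CPM in the class and 71.5 and 58.2 CPM in midbrain cells, which was under 2-fold in both libraries.

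Of the 9 counted midbrain and isthmus genes, 5 were lower in the class than in midbrain cells: En1, En2, Pax5, Pax8 and Wnt1. Wnt1, a ligand of the midbrain and isthmus, had 5.83 and 8.36 CPM in the class against 53.6 and 24.3 CPM. Otx2 and Pax2 were lower without reaching 2-fold in both libraries, with log2 ratios of -1.19 and -0.89 for Otx2. Nkx6-1, a homeobox gene of ventral neural progenitors, had 10.9 and 7.66 CPM against 31.9 and 27.8 CPM. Sox2, which both epiblast and neural cells use, had 117 and 138 CPM in the class and 144 and 132 CPM in midbrain cells.

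Set against the caudal epiblast class, 93 genes (1.07% of the 8726 counted) were higher and 95 (1.09%) were lower, 188 (2.15%) in either direction. Of the 13 midbrain and isthmus genes, 5 were counted and 4 of these were higher. The filter favours this outcome for genes near 0 in caudal epiblast cells, such as Otx2 and En1. On the lower side were 5 of 8 counted caudal epiblast genes, Cdx1, Cdx2, Nkx1-2, Wnt8a and Hes3, and 5 of 9 counted hindbrain genes. All 5 counted spinal cord Hox genes, from a list of 11, were lower too, which the filter favours for genes near 0 in the class. Nkx1-2, a homeobox gene of the caudal epiblast, had 6.07 and 3.95 CPM in the class against 59.6 and 54.6 CPM, and Wnt8a, a Wnt ligand of the posterior embryo, had 8.50 and 6.61 CPM against 82.3 and 74.8 CPM.

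Epiblast genes did not set these classes apart as a group: 1 of 11 was higher, Nanog, and none was lower. Nanog, the homeobox factor of pluripotent cells, had 30.4 and 18.2 CPM in the anterior epiblast class, against 12.6 and 8.14 CPM in the caudal epiblast class. Pou5f1 ran the other way, with log2 ratios of -1.25 in the non-elongated library and -0.41 in elongated replicate 1. Hes5, a Notch target of neural progenitors, had 26.0 and 29.4 CPM in the anterior class against 4.01 and 10.6 CPM in the caudal class. Nr2f1, an orphan nuclear receptor of the neural plate, had 14.1 and 18.0 CPM against 0.930 and 4.42 CPM.

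Over all genes, the class was as close to the hindbrain class as to the midbrain class, with a Pearson correlation across genes of log2 levels of 0.972 for each in the non-elongated library and 0.975 for each in elongated replicate 1. The caudal epiblast class stood at 0.959 and 0.968. These are descriptions across genes, which are not replicates, and the classes compared share a library. The midbrain sums rest on fewer UMIs (2851986 and 3163388) than the hindbrain sums (17239541 and 26605595), so midbrain levels are less precise. Among the 20 nearest neighbours of each cell in the authors' 30 principal components, 85.8% and 83.8% were of the same class, 6.67% and 9.02% were hindbrain cells, and 4.83% and 3.56% were midbrain cells. Class sizes enter these shares: hindbrain cells made up 22.7% and 35.6% of the libraries, and midbrain cells 4.58% and 4.14%. Of the neighbours of midbrain cells, 9.75% and 10.9% were anterior epiblast cells, against 1.41% and 1.99% for hindbrain cells.

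Some genes were highest in this class. With a margin of 1.5-fold over each of the other 6 classes in both libraries, 21 of 8804 genes qualified, a rule chosen after levels had been seen. The same margin gave 5 genes for the caudal epiblast class, 17 for midbrain, 4 for hindbrain, 21 for spinal cord, 25 for surface ectoderm and 71 for mesenchyme. With a margin of 2-fold, 6 genes were left: Slc9b1, Nanog, Trap1a, Xlr3a, Akr1b8 and Gngt2. Xlr3a belongs to a family of near-identical X-linked copies, and Akr1b8 has close paralogues, so their counts are less certain. Of the 21 genes, 7 lie on chromosome 6 (33.3%), among them Nanog, Podxl and Akr1b3, whereas 4.83% of the genes examined lie there. A further 4 lie on the X chromosome (19.0%, against 3.48%). Of the 64 genes higher against all other cells, 12 lie on chromosome 6 (18.8%), and of the 65 lower genes 7 (10.8%), against 4.83% of those counted. Against midbrain cells these shares were 16.9% of the higher and 5.00% of the lower genes. Against caudal epiblast cells they were 15.1% and 10.5%.

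The excess on chromosome 6 was followed over whole chromosomes, an analysis added after the levels had been seen. Among genes with a mean of at least 20 CPM, those on chromosome 6 had a median log2 ratio, class over all other cells, of 0.48 in the non-elongated library (259 genes) and 0.36 in elongated replicate 1 (257 genes). The ratio was above 0 for 95.8% and 92.6% of them. The medians of the other 19 chromosomes lay between -0.06 and 0.04 in the non-elongated library and between -0.10 and 0.16 in elongated replicate 1. The highest of these, 0.16, was that of chromosome 15, where 78.3% of 235 genes were above 0. It was not particular to the class. In elongated replicate 1 the chromosome 15 median was also 0.16 in the caudal epiblast class, with 79.0% of genes above 0. In the spinal cord class of that library it was -0.30. Chromosome 15 also stood apart in the midbrain class of the non-elongated library, with a median of -0.22 (0.03 in elongated replicate 1). Its part in the comparisons between classes was not tested. In windows of 15 Mb along chromosome 6, medians ranged over 0.38 to 0.55 and over 0.26 to 0.43, and some of the windows held as few as 11 genes. The higher level thus ran along the whole chromosome and was not set by a few genes. The caudal epiblast class had chromosome 6 medians of -0.09 and -0.08, and the midbrain class of 0.19 and -0.02.

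**Figure D2:**
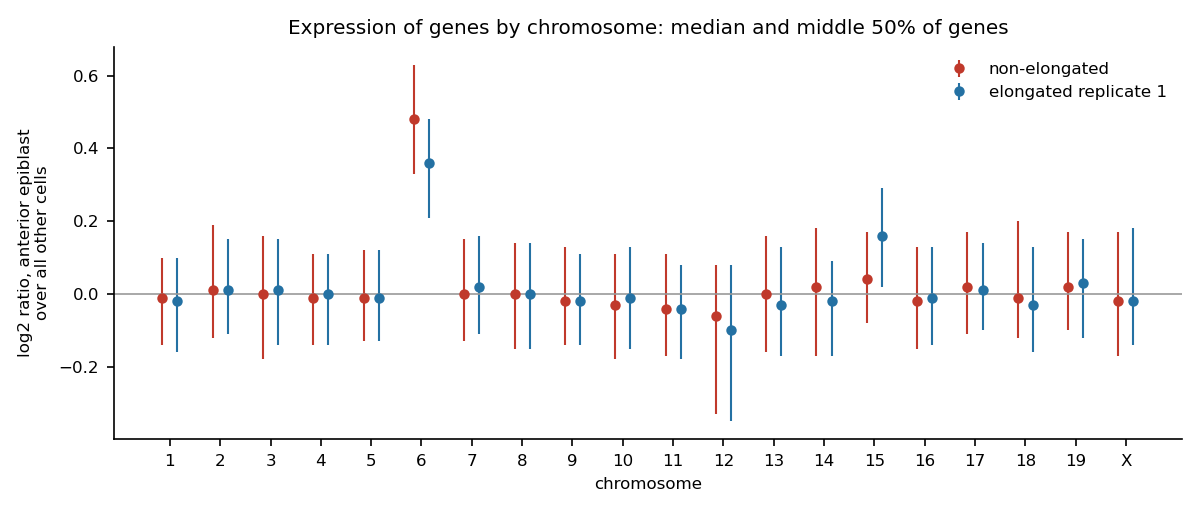
Median log2 ratio of anterior epiblast cells over all other cells for the genes of each chromosome, with the middle 50% of genes as bars, red for the non-elongated library and blue for elongated replicate 1. Chromosome 6 stands at 0.48 and 0.36, and every other chromosome lies between -0.10 and 0.16. The highest of the others is chromosome 15 in elongated replicate 1, at 0.16.

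The share of UMIs from chromosome 6 was then taken in each cell, over 4856 genes of 20 to 500 CPM, 232 of them on chromosome 6, with a median of 13263 UMIs per cell. Anterior epiblast cells had a median share of 6.80% in the non-elongated library and 6.68% in elongated replicate 1, against 4.78% and 4.79% in the caudal epiblast class. Shares fell into a pair of separate peaks with few cells between them, and a boundary of 5.5% was set between the peaks after seeing them. Over it lay 111 of 120 cells of the class in the non-elongated library (92.5%, interval 86.2 to 96.5) and 154 of 198 in elongated replicate 1 (77.8%, 71.3 to 83.4). Only 1 and 2 cells of the class lay between 5.25% and 5.75%. The median share of the cells over the boundary in the class was 1.44 and 1.42 times that of all cells under it.

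Cells over the boundary were not particular to the class. They made up 35.3% and 18.6% of midbrain cells, 5.54% and 14.6% of hindbrain cells, and 0.986% and 8.20% of caudal epiblast cells. In all, 202 cells (9.08%) of the non-elongated library and 363 cells (17.5%) of elongated replicate 1 lay over it, and the anterior epiblast class held 55.0% and 42.4% of these. In the spinal cord class 25 and 98 cells lay within 0.25 points of the boundary, so its shares of 6.21% and 6.90% depend on where the boundary is placed. In the second table, 16 of 2402 cells (0.666%) of elongated replicate 2 at day 6 lay over 5.5%, 14 of 2565 (0.546%) at day 7, 26 of 3337 (0.779%) at day 8 and 32 of 3677 (0.870%) at day 10. At the stricter boundary of 6.25% these were 7, 6, 0 and 1 cells, against 172 cells (7.73%) of the non-elongated library and 315 cells (15.2%) of elongated replicate 1. The second table was filtered and annotated separately, and its share rests on 231 genes of chromosome 6. DNA copy number was not measured, and the part of the chromosome 6 share in the levels of other genes was not tested.

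**Figure D3:**
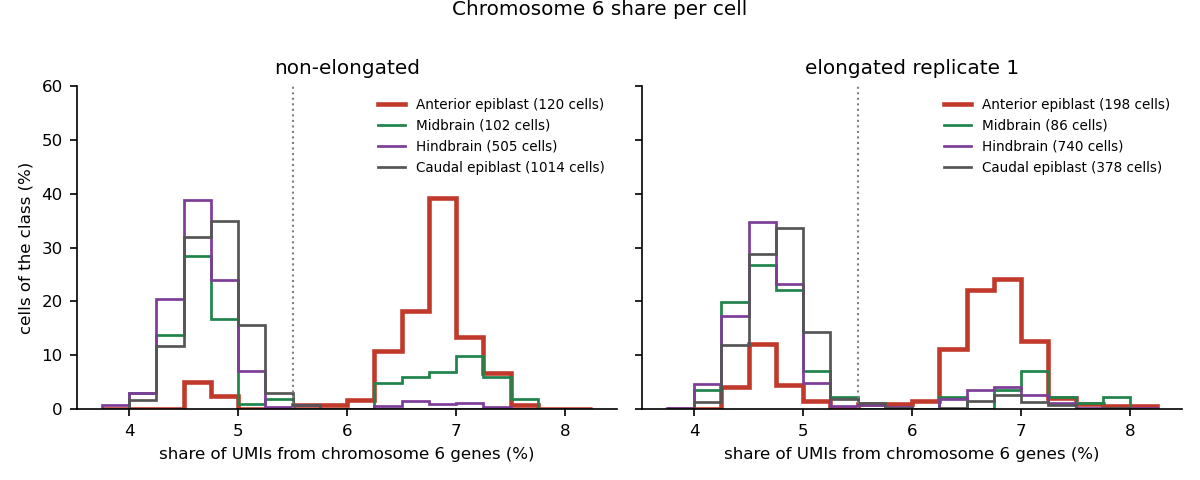
Share of UMIs from chromosome 6 genes per cell (%, bins of 0.25 points) as a percentage of each class, non-elongated library left and elongated replicate 1 right; the dotted line is the boundary of 5.5%. Anterior epiblast cells (thick red) lie mostly in the upper peak near 6.8%, midbrain cells are split between the peaks, and caudal epiblast and hindbrain cells lie mostly in the lower one.

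Genes on other chromosomes differed between the cells over and under the boundary in several classes. Slc9b1, which lies on chromosome 3, had 57.6 CPM (50.2 to 65.7) over the boundary in anterior epiblast cells of the non-elongated library, and no UMI in the 9 cells under it, where 3 UMIs would be 9.63 CPM. In elongated replicate 1 it had 52.4 CPM (47.1 to 58.1) over the boundary and 11.1 CPM (6.77 to 17.1) under it. The same split appeared in midbrain cells, with 61.2 CPM over and 1.11 CPM under in the non-elongated library, and 46.8 CPM over and 0.761 CPM under in elongated replicate 1. In hindbrain cells Slc9b1 had 20.9 CPM over and 2.28 CPM under in the non-elongated library, and 28.5 CPM over and 3.06 CPM under in elongated replicate 1. The leading gene of the class by fold thus followed the chromosome 6 share within other classes too.

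Ebf1 showed the split less regularly. In elongated replicate 1 it had 95.9 CPM over and 47.7 CPM under the boundary in anterior epiblast cells, and 51.4 CPM over and 10.6 CPM under in caudal epiblast cells. In the non-elongated library the class had 71.5 CPM over and 80.3 CPM (51.9 to 118) under, from 9 cells. Nanog, itself on chromosome 6, had 32.6 CPM (27.1 to 38.9) over and 3.21 CPM (0.0813 to 17.9, from 1 UMI) under in anterior epiblast cells of the non-elongated library, and 19.8 CPM over and 12.2 CPM under in those of elongated replicate 1. In caudal epiblast cells of elongated replicate 1 it had 20.3 CPM over and 6.89 CPM under. In the hindbrain class its levels were 7.98 CPM over and 7.76 CPM under in the non-elongated library, and 1.98 CPM over and 2.22 CPM under in elongated replicate 1.

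Of the defining markers, Pou5f1 in the class had 142 CPM over and 132 CPM under the boundary in the non-elongated library, and 116 CPM over and 78.1 CPM under in elongated replicate 1. En1 in the class had 58.1 CPM (50.7 to 66.3) over and 12.8 CPM (3.50 to 32.9) under in the non-elongated library, where 9 cells lie under the boundary, and 22.5 CPM over and 21.1 CPM under in elongated replicate 1. En1 in midbrain cells had 218 CPM over and 213 CPM under in the non-elongated library, and 148 CPM over and 176 CPM under in elongated replicate 1. Otx2 in the class had 32.9 CPM (27.3 to 39.1) over and 3.21 CPM (0.0813 to 17.9, from 1 UMI) under in the non-elongated library, and 25.8 CPM over and 22.7 CPM under in elongated replicate 1. In midbrain cells Otx2 ran the other way and was lower over the boundary, with 44.9 CPM over and 86.4 CPM under in the non-elongated library, and 7.48 CPM over and 55.5 CPM under in elongated replicate 1.

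**Figure D4:**
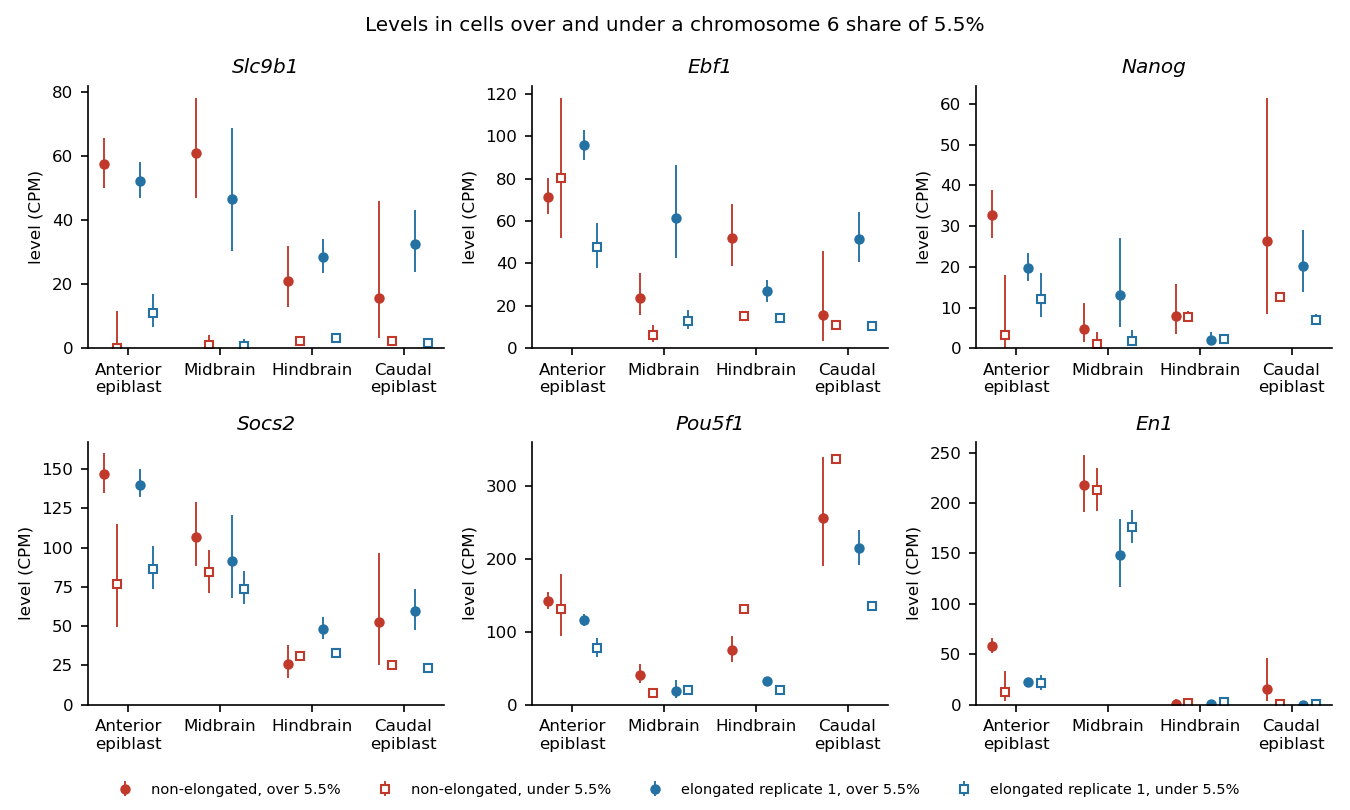
Levels of 6 genes (CPM) in cells over (filled) and under (open) a chromosome 6 share of 5.5%, in 4 classes, red for the non-elongated library and blue for elongated replicate 1, with exact Poisson 95% intervals. Slc9b1 is higher over the boundary in each class shown, whereas En1 in midbrain cells is at similar levels on either side.

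The class was then set against the other cells on the same side of the boundary. Shares still varied within a side: over the boundary, spinal cord cells mostly lay closer to it than cells of the class did. Whether the split removed the difference in chromosome 6 share was not tested. Over the boundary, with 111 class cells against 91 others in the non-elongated library and 154 against 209 in elongated replicate 1, 19 genes (0.216% of 8798) were higher and 34 (0.386%) lower. Of the 64 genes higher against all other cells, 15 remained (23.4%), and 60 kept their direction in both libraries. The 64 higher and 65 lower genes were picked from these same cells, so a kept direction, over or under the boundary, is no independent check. No share over all counted genes was taken for it. Rhox5 (log2 ratios 3.23 and 4.62), Nanog (1.88 and 1.56), Ebf1 (1.19 and 1.53), Socs2 (1.28 and 1.43), Cbln1 and Cyp26a1 remained, and Slc9b1 and Otx2 did not. Of the 65 lower genes 25 remained (38.5%) and all 65 kept their direction. Cdx2 had log2 ratios of -3.71 and -4.46 and Hoxb9 of -4.81 and -5.46. Under the boundary, with only 9 class cells against 2014 others in the non-elongated library and 44 against 1669 in elongated replicate 1, 45 genes (0.538% of 8363) were higher and 69 (0.825%) lower. Of the 64 and 65 genes, 21 (32.8%) and 35 (53.8%) were among these, and 53 and 60 kept their direction in both libraries. Ebf1 had log2 ratios of 2.67 and 2.04 there, Socs2 of 1.39 and 1.51 and Hoxb9 of -3.66 and -4.58. The other cells over the boundary hold a larger part of midbrain and hindbrain cells than the table as a whole, so the loss of Otx2 from the count was not separated from that makeup.

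The contrast of shapes was finally read within the class. Between the non-elongated library and elongated replicate 1, 34 genes (0.379% of 8972 counted) were at least 2-fold higher and 18 (0.201%) at least 2-fold lower. In all other cells together the same contrast gave 124 genes higher (1.38% of 8978) and 77 lower (0.858%), 201 (2.24%) in either direction. Anterior epiblast cells thus had the fewest genes apart of the 7 classes at this filter, 0.580%, against 1.03% in the midbrain class and 1.04% in the caudal epiblast class. At a filter of 20 CPM the class and midbrain cells were level, with 0.251% and 0.247%. The midbrain class rests on fewer UMIs, 2851986 and 3163388, which makes its levels less precise.

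Epiblast genes were at nearly equal levels in both libraries within the class. Of 11 counted, none was higher and 1, L1td1, was lower, with a median log2 ratio of 0.11, whereas in all other cells 5 of 10 were higher with a median of 1.01. Pou5f1 had a log2 ratio of 0.39 in the class and 0.35 in midbrain cells. Its small difference was thus not particular to the class. The ratio was 1.22 in caudal epiblast cells, 2.49 in hindbrain cells and 2.80 in spinal cord cells. Utf1 had 22.1 CPM in non-elongated and 25.9 CPM in elongated replicate 1 cells of the class. Epithelial genes showed the same contrast in counts: 2 of 8 were higher in the class, Cldn4 and Tfap2c, and 9 of 10 in all other cells, with medians of 0.44 and 2.01. Of the neural progenitor genes 1 of 11 was lower in the class, Nr2f2, and 7 of 13 in all other cells. The makeup of the other cells differs between the libraries, with 45.6% caudal epiblast cells in the non-elongated library and 18.2% in elongated replicate 1, and its part in these counts was not tested.

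The 10 genes highest in non-elongated cells of the class were Tal2, Plk2, Klf2, Junb, Egr4, Msx1, Nr4a1, Csrnp1, En1 and Bhlhe41. Several are immediate early genes, which answer to stimuli within minutes. Junb had 228 CPM (214 to 243) in non-elongated and 76.1 CPM (70.4 to 82.2) in elongated replicate 1 cells, and Nr4a1, an orphan nuclear receptor, had 156 and 56.9 CPM. Klf2, a Krüppel-like factor, had 272 and 86.9 CPM. It was also higher in non-elongated cells of every other class but midbrain (75.4 and 87.2 CPM). Its log2 ratios were 1.05 in caudal epiblast, 1.48 in hindbrain, 1.39 in spinal cord, 1.89 in surface ectoderm and 2.32 in mesenchyme cells. Nr4a1 and Junb were higher in some other classes too, with 1.09 and 1.00 in hindbrain and 2.11 and 1.20 in spinal cord cells. In midbrain cells they had 0.27 and 0.44. These differences were thus not particular to the class. In the list of stress and immediate early genes 1 of 11 was at least 2-fold higher, Junb, and the median log2 ratio was 0.62, against 0.11 in all other cells.

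Tal2, a helix-loop-helix factor of the midbrain, had 26.2 CPM (21.5 to 31.7) in non-elongated and 6.61 CPM (5.01 to 8.57) in elongated replicate 1 cells of the class, and 42.8 and 11.4 CPM in midbrain cells. En1 had 54.7 and 22.2 CPM in the class, a log2 ratio of 1.26, against 0.33 in midbrain cells. On the lower side, Vgll3, a cofactor of TEAD transcription factors, had 0.972 CPM (0.265 to 2.49) in non-elongated and 21.9 CPM (18.9 to 25.3) in elongated replicate 1 cells. Its UMIs in elongated replicate 1 came from 46 cells, 19 of which held 79.4% of them, and hindbrain cells showed the same direction with 4.58 and 44.1 CPM. Crabp1 had 146 and 364 CPM in the class. Col2a1, Nrip1, Prrx2, Phlda2, Fgf15, Lrp2, Mn1 and Sox1, the next lowest, were under 2-fold, from -0.99 for Col2a1 to -0.79 for Sox1. The part of the class over the chromosome 6 boundary also differed between the libraries, at 92.5% and 77.8%, and its part in these differences was not tested.

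**Figure D5:**
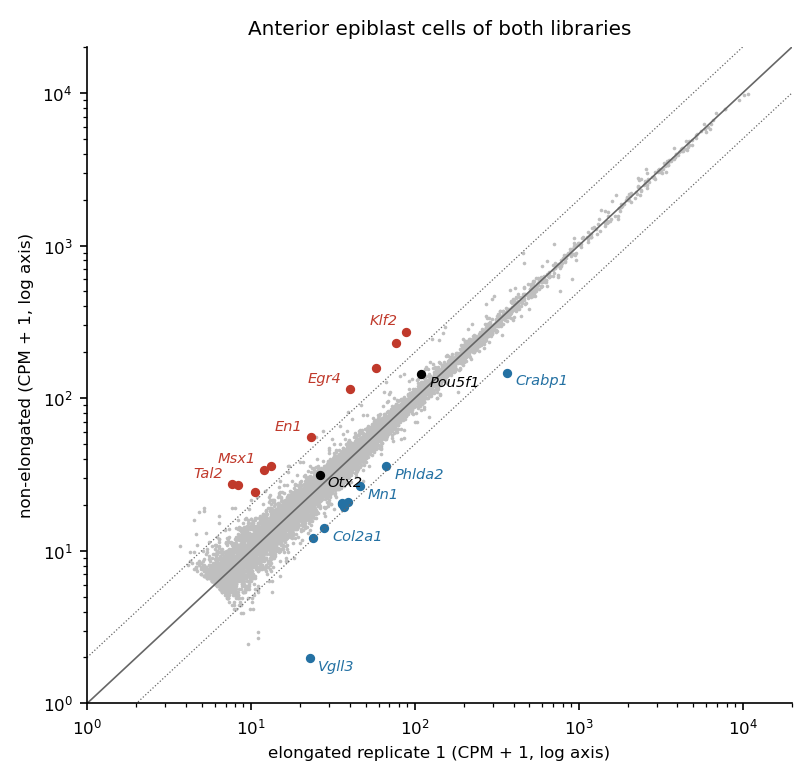
Levels in anterior epiblast cells of the non-elongated library (y axis) and elongated replicate 1 (x axis), both as CPM + 1 on log axes, 1 point per counted gene; dotted lines mark 2-fold, red and blue points are the 10 highest and 10 lowest genes, and some of them are labelled. Most genes lie within the 2-fold lines, Pou5f1 and Otx2 (black) among them, and Vgll3 lies farthest below.

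The other libraries offered no cells of this name to compare with, so single markers were read over all their cells. Pou5f1 had 48.6 CPM in elongated replicate 2 at day 6, 1.92 CPM at day 7, 1.56 CPM at day 8 and 1.93 CPM at day 10. Cells with both Otx2 and Pou5f1, without thinning, numbered 38 of 2402 (1.58%) in elongated replicate 2, 3 of 2565 at day 7, 0 of 3337 at day 8 (which allows a share of up to 0.0899%) and 6 of 3677 at day 10. Cells that carry the marker pair were thus few in that table, most of them at day 6.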

How the data were processed

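The deposited matrices hold raw UMI counts, 1 value for each gene in each cell. Their metadata give counts and genes per cell, the mitochondrial share in percent, principal components as scores, and names of classes and libraries, which are deposited as other columns without a unit. The submitters' processing notes name Cell Ranger 3.1 and mm10; how cells were filtered, clustered and named is not given in the sources used here. The library names NENT and SENT were read by their initials as non-elongated and elongated, which the labels do not spell out. Every cell's total was the same as in the metadata.

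UMIs were summed per class and library and scaled to CPM with Python 3.11.15, numpy 2.4.6, scipy 1.17.1 and pandas 2.3.3. Ratios are log2 of CPM + 1 over CPM + 1. Cells are not replicates, the contrast of shapes has 1 library on each side, and classes clustered from the same cells were not tested against each other; intervals are 95% exact Poisson for levels and exact Clopper-Pearson for shares. A share of 0 and a level of 0 are given with the limit that 3 counts allow. Thinning drew 10000 UMIs per cell without replacement, and no cell had fewer. Named genes reach 20 CPM on the higher side and are the 10 highest and 10 lowest by the smaller log2 ratio of both libraries, or by the ratio itself within the class, besides members of 34 gene lists (379 of their 383 genes are in the table). The members and lists were chosen with earlier results of these data known. Gene positions and chromosomes come from GENCODE on GRCm38. Scrublet, in scanpy 1.11.5, marked 12 of 4301 cells (0.279%) as doublets, too few to be taken as having worked. Of the class it marked 2 and 0 cells, and 2.50% and 2.53% of the class had over 2 times the median UMIs of their whole library. No cell was removed in the values given, and doublets remain possible among cells with markers of several types. The calling of 2-fold differences was checked on simulated counts, drawn from the pooled levels of the class with known folds. One gene is not reported here. Other pseudocounts, level filters, folds, scalings, thinning depths and single libraries were tried.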

Additional observations from a re-analysis of the deposited data

Results flagged for a closer look

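Against all other cells, 3 of the 8750 counted genes were at least 2-fold higher in one library and at least 2-fold lower in the other, and L1td1 and Nr2f1 were those on the gene lists. L1td1, an RNA-binding protein of pluripotent cells, had a log2 ratio of -2.44 in the non-elongated library, with 5.34 CPM in the class and 33.5 CPM in the other cells, and of 1.13 in elongated replicate 1, with 11.8 CPM in the class and 4.88 CPM in the others. Nr2f1 had a log2 ratio of 1.00 in the non-elongated library, with 14.1 CPM in the class and 6.53 CPM in the others, and of -1.18 in elongated replicate 1, with 18.0 CPM in the class and 41.9 CPM in the others. The difference between the libraries was not tested. The levels in the other cells moved more than those in the class, and the makeup of the other cells differs between the libraries.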

How the results depend on the processing

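Counts of genes moved with the settings. Against all other cells, genes higher and lower numbered 126 and 116 with no filter on low values, 25 and 23 at a mean of at least 20 CPM, 221 and 180 at 1.5-fold, 158 and 169 in the non-elongated library alone, 131 and 130 in elongated replicate 1 alone, and 19 and 34 over the chromosome 6 boundary on both sides, a setting added after seeing the data; a pseudocount of 5 CPM gave 35 higher. Against midbrain cells they numbered 138 and 88, 23 and 8, 185 and 176, 161 and 135, and 118 and 93 in the first 5 of these settings, and 41 and 20 with a pseudocount of 5. Against caudal epiblast cells they numbered 188 and 158 unfiltered, 35 and 40 at 20 CPM, 328 and 245 at 1.5-fold, and 237 and 190 in the non-elongated library alone, and 52 were higher with a pseudocount of 5. Within the class, they numbered 82 and 104 unfiltered, with more lower than higher, 12 and 1 at 20 CPM, 187 and 145 at 1.5-fold, and 16 and 5 with a pseudocount of 5, and 31 were lower with a pseudocount of 0.1. Cells with Otx2 and Pou5f1 were 41.7% and 27.8% of the class without thinning, and 10.0% of the non-elongated cells at 5000 UMIs; cells with all 3 markers were 17.5% and 8.59%, and 0% of the non-elongated cells at 5000 UMIs. The shares of the class and the chromosome 6 medians stayed within their limits under every setting tried for them. Among the named genes, Fbln2 against midbrain cells and Col2a1, Nrip1, Prrx2, Fgf15 and Bhlhe41 within the class changed side of the 2-fold line in 1 or more settings. Depth limits the co-detection values and the counts of genes of low level. No paired analysis was possible because no result comes from a test: the contrast of shapes has 1 library on each side, and the classes, whose ratios were taken within each library, come from clustering the same cells.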
